A study of Mus musculus with 5 samples.

Results

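The cells described here are mouse hindlimb muscle fibroblasts that hold transcripts of Dmkn, Sbsn and Krtdap, in muscle at rest and 1 and 14 days after injury. A cell was a member when its unique molecular identifiers (UMIs, each standing for 1 captured transcript) for the 3 genes summed to at least 3 and to at least 5 per 10000 of its UMIs. By this rule 984 of 8860 cells were members: 215 of 1900 quiescent cells, 510 of 4536 on day 1 and 259 of 2424 on day 14. The 8860 are the cells left after tendon-like and mural cells were set aside, and all kept cells of the series number 17085 in 5 libraries. Members were chosen by their measured UMIs of Dmkn, Sbsn and Krtdap, so the values of these 3 genes are a description. Every other gene was read in the same chosen cells, so a difference between members and other cells is a description too, with no test.

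Dermokine (Dmkn), suprabasin (Sbsn) and keratinocyte differentiation-associated protein (Krtdap) are secreted proteins, best known from the differentiating upper layers of the epidermis. The fibroblasts of skeletal muscle lie in the interstitium, in the fascia and in the adventitia of vessels. Those that carry Pdgfra and Ly6a, often called fibro-adipogenic progenitors, support muscle stem cells after injury, and Pi16 and Dpp4 mark fibroblasts of fascia and adventitia in many organs.

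Every library came from C57BL/6J mice that carried Hic1CreERT2/CreERT2;Rosa26LSLtdTomato/+, meaning a tamoxifen-activated recombinase under Hic1 on both copies and a tdTomato reporter on 1 copy. At 8 weeks of age the mice received 2.5 mg of tamoxifen in 100 uL of sunflower oil a day for 5 days, and 10 days of washout followed. The quiescent library was made from muscle with no injury named in the labels, and the others 1, 2, 4 or 14 days after notexin, a snake venom toxin that kills muscle fibres. Sorted tdTomato-positive mesenchymal progenitors of whole hindlimb muscle entered 10x Chromium 3' v2 capture, with 1 library per time point. How many animals each library pooled is not given in the sources used here. Only cells in which Hic1 drove the recombinase while tamoxifen acted, and their descendants, carry the label. With 1 library per group, time point and library cannot be told apart and no difference between time points is tested, and all intervals below are exact 95% intervals that cover counting error only.

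The 3 rule genes are neighbours. In RefSeq's annotation of GRCm38.p6 they lie in the order Sbsn (30732674 to 30756134), Dmkn (30763756 to 30781066) and Krtdap (30787905 to 30791089) on the plus strand of chromosome 7. The start of Sbsn in the promoter table, 30751471, lies inside its gene record, and the outer end of that record was not searched. This start and that of Krtdap lie 36434 bases apart. Each start in the table has a copy of TGAGTCA, the motif bound by AP-1 factors, in the window from 250 bases before to 50 bases after it. The 4 stretches below, each from the plus strand of GRCm38.p6 as given by RefSeq, are shown because these genes define the cells; capitals mark the motif.

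Sbsn chr7:30751455-30751481: caggagggatTGAGTCAtgaggggtgg

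Dmkn chr7:30763657-30763683: ggataggcccTGAGTCActggaggagg

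Dmkn second start chr7:30776313-30776339: cgggaagctaTGAGTCAtggaaggaaa

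Krtdap chr7:30787814-30787840: gatccggggaTGAGTCActagggtggg

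The motif begins 6 bases before the Sbsn start, 89 bases before the first Dmkn start, 82 before the second and 81 before the Krtdap start. TGAGTCA on either strand (its reverse complement is TGACTCA) is in 1709 of 32851 RefSeq promoter windows of the same length, or 5.20%. These windows belong to 1607 of 27025 genes. The window of Wnt2, another gene of these cells, has no match, and those of Aldh1a3 and Krt19 were not analysed here. These are matches of letters, and no file here measures binding. Tmem147, just upstream of the 3 genes, was read at like levels in members and in other cells: 124 and 133 counts per 1000000 UMIs (CPM) in the quiescent library. The other neighbours, Atp4a, Gapdhs, 2200002J24Rik and Ffar1, Ffar2 and Ffar3, had 0 to 5 UMIs in any group. In members most UMIs of this stretch of chromosome 7 thus came from Sbsn, Dmkn and Krtdap, the genes that chose them. In other cells Tmem147 had the most: 840 UMIs in the quiescent library, against 153 of Sbsn, 11 of Dmkn and 41 of Krtdap.

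In the 3 libraries of the rule the members' shares had overlapping intervals. The share was 11.3% (9.93 to 12.8) before injury, 11.2% (10.3 to 12.2) on day 1 and 10.7% (9.48 to 12) on day 14. The same rule found 334 of 2407 cells at day 2, 13.9% (12.5 to 15.3), and 472 of 3810 at day 4, 12.4% (11.4 to 13.5), and the day 2 interval lies above that of day 14. With tendon-like and mural cells kept in the denominator, the share was 10.1% (8.81 to 11.4) before injury and 7.45% (6.6 to 8.38) on day 14. The sort and the depth of a library can set such a share. Cells with at least 2500 UMIs were also thinned to 2500, and shallower cells were left out. The shares became 10.1% of 1517 cells before injury, 8.46% of 4552 on day 1 and 8.16% of 2060 on day 14. The rule and the exclusion were applied again to the thinned counts. There 3 UMIs are a higher rate than the rule's minimum rate, so the rule was stricter. These shares thus do not show the effect of depth alone. Few excluded cells passed the rule: 0 of 126, 1 of 183 and 4 of 808 tendon-like cells, and 0 of 112, 1 of 97 and 2 of 247 mural cells in the quiescent, day 1 and day 14 libraries.

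Sbsn was the highest of the rule genes in each library, at 1389 CPM of the members' summed UMIs before injury, 1302 on day 1 and 1234 on day 14. Dmkn was at 596, 590 and 294 CPM, and Krtdap at 885, 472 and 691 CPM in the same order. Sbsn was found in 94.9%, 97.1% and 95.4% of member cells, Krtdap in 75.8%, 71.4% and 72.2%, and Dmkn in 54.4%, 64.7% and 41.3%. All 3 genes were found together in 93 members of the quiescent library, 257 of day 1 and 77 of day 14, and 39, 88 and 54 members had only 1 of them. Other cells held 24.3, 22.5 and 37.8 CPM of Sbsn, 6.51, 2.42 and 7.59 of Krtdap and 1.75, 1.94 and 1.10 of Dmkn. Dmkn was lowest in day 14 members, while Sbsn differed less among the libraries. The rule chose members by the sum of these genes, so their levels describe the chosen cells and not a course over time.

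Most other cells held none of the 3 transcripts. Of them, 1523, 3479 and 1824 (90.4%, 86.4% and 84.2%) had no UMI of the 3 genes in the quiescent, day 1 and day 14 libraries. Just outside the rule, 43, 99 and 92 other cells had 2 UMIs, and 0, 106 and 29 had 3 or more at too low a rate. Just inside it, 21, 23 and 23 members had exactly 3 UMIs. The members' median rate was 23.9, 16.4 and 19.0 per 10000 UMIs, the lowest 5.27, 5.02 and 5.08, and the highest 116, 171 and 126.

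**Figure D1:**
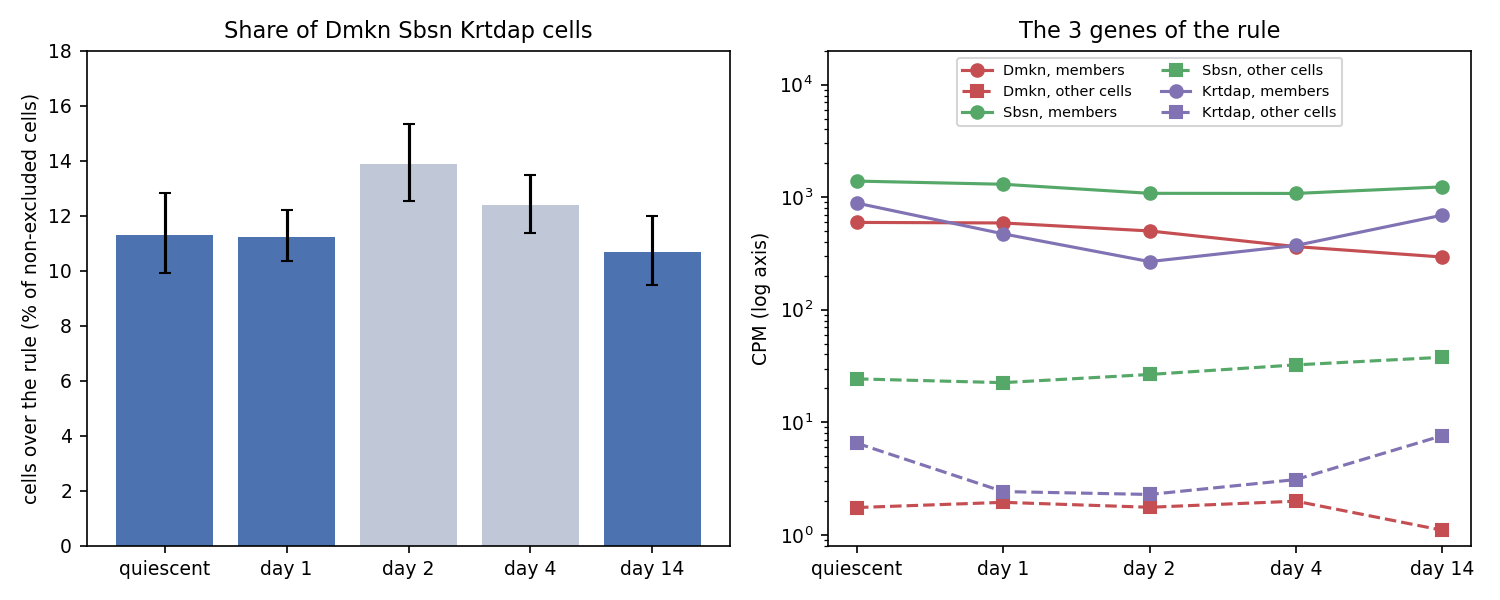
Left: members as a percentage of non-excluded cells in each of the 5 libraries, with exact 95% intervals of counting error; days 2 and 4, in lighter bars, were read by the same rule. Right: Dmkn, Sbsn and Krtdap in CPM on a log axis in the quiescent, day 1 and day 14 libraries, members as solid and other cells as dashed lines. The shares lie between 10.7% and 13.9%, and each rule gene lies far higher in members because it chose them.

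Members had somewhat more UMIs than other cells. Their median was 4764 UMIs a cell before injury, 9115 on day 1 and 5995 on day 14, beside 3783, 8711.5 and 4851 in other cells. Mitochondrial transcripts took a median of 2.27%, 1.56% and 2.10% of a member's UMIs and 2.64%, 1.76% and 2.24% of another cell's. The quiescent and day 1 libraries shared 21 cell barcodes, the quiescent and day 14 libraries 11, and the day 1 and day 14 libraries 26. Of the barcodes shared by the quiescent and day 1 libraries 1 was a member in both, and without the shared barcodes none of the 13 shares and counts of genes given below moved by over 1.5 times.

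The members, like the other cells, carried the markers of fibroblasts and few of keratinocytes. Of 10 fibroblast progenitor markers (Pdgfra, Ly6a, Cd34, Dcn, Col1a1, Col1a2, Col3a1, Lum, Pi16 and Dpp4), 10, 9 and 10 reached 50 CPM in members of the quiescent, day 1 and day 14 libraries. The same numbers reached it in other cells, and 8, 9 and 8 in the excluded mural cells. These markers summed to 34499, 11478 and 40739 CPM in members and to 45756, 12965 and 47463 in other cells. In mural cells they summed to 5715, 5124 and 6812 CPM. Of 12 keratinocyte markers, 8, 8 and 6 were at 0. The keratinocyte markers summed to 39.7, 18.9 and 63.3 CPM in members and to 41.6, 16 and 49.8 in other cells, nearly all of it Krt10. Krt5 and Krt14, the keratins of basal epidermis, were at 0 in members of all 3 libraries. Mesothelial markers summed to 0, 1.38 and 19.1 CPM, with 10, 8 and 7 of 10 at 0. Most of the day 14 sum was Msln, at 17.8 CPM from 27 UMIs in 0.772% of members. Tenocyte markers summed to 31.8, 18.3 and 89.6 CPM in members and 266, 187 and 387 in other cells. Mural markers summed to 43.7, 26.4 and 75.1 CPM, mostly Pdgfrb, beside 124, 47.7 and 182 in other cells. Tnmd, Fmod, Kera and Chad of the tenocyte list and Rgs5, Kcnj8, Abcc9 and Higd1b of the mural list served to exclude cells. The low sums of both lists in members and in other cells thus follow in part from that exclusion. Immune markers summed to 8.93, 11.4 and 4.61 CPM, beside 8.41, 9.71 and 6.31. Perineurial markers summed to 103, 35.2 and 86.3 CPM in members, above the 56.3, 34.2 and 75.0 of other cells. Schwann markers summed to 62.5, 17.9 and 26.4 CPM, beside 157, 42.2 and 225. Endothelial markers were at 28.8, 9.64 and 28.3 CPM, beside 31.7, 9.65 and 22.9. Myogenic ones were at 24.8, 7.87 and 13.2 CPM, beside 48.7, 27.4 and 55.1.

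All cells were sorted as tdTomato-positive, so the presence of the lineage label could not set members apart. The tdTomato transcript was at 1206, 1164 and 1673 CPM in members and 1249, 1468 and 1673 in other cells. Hic1, the repressor whose locus drives the recombinase, was at 24.8, 13.6 and 26.4 CPM in members and 39.8, 9.68 and 37.4 in other cells. The labels do not say whether the recombinase allele, on both copies in every library, alters the Hic1 transcript. Pdgfra, the receptor used to sort muscle progenitors, was at 147 CPM in quiescent members and 345 in other quiescent cells, 2.35-fold lower (1.99 to 2.79). Ly6a (3226 and 2016 CPM) and Cd34 (1641 and 1320 CPM), both surface antigens of these progenitors, were higher in members by 1.60-fold (1.54 to 1.66) and 1.24-fold (1.18 to 1.31).

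In resting muscle the members held more Wnt2, Aldh1a3, Krt19, Pi16 and Igfbp5 than other cells, and less of genes that mark other interstitial fibroblasts, such as Smoc2, Hsd11b1 and Cxcl14. Of 3009 genes with at least 50 CPM in members or in other cells, 168 (5.58%) were at least 2-fold higher in members and 188 (6.25%) at least 2-fold lower. The rule genes are left out of these counts. The median of all compared genes was -0.11 on the log2 scale, members against other cells.

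Wnt2, Aldh1a3 and Krt19 were chosen as markers of these cells with earlier results of these data known. Wnt2, a secreted Wnt ligand, was at 146 CPM in quiescent members and 16.8 in other cells, 8.67-fold higher (6.71 to 11.2). Aldh1a3, an enzyme that makes retinoic acid, was at 267 and 28.4 CPM, 9.40-fold higher (7.75 to 11.4). Krt19, a keratin of simple epithelia, was at 124 and 7.62 CPM, 16.3-fold higher (11.6 to 23.2). A UMI of Wnt2 was found in 40% of members, 4.39% of other cells and 0 of 112 mural cells, which should lack it. Aldh1a3 was found in 58.1%, 8.01% and 1.79%, and Krt19 in 24.7%, 1.54% and 0 of the mural cells. Mural cells held a median of 1427 UMIs, against 4764 in members. With cells thinned to 2500 UMIs, which left out 25 members and 365 other cells, members held a UMI of Wnt2 in 25.3%, of Aldh1a3 in 45.3% and of Krt19 in 17.4% of cells, and other cells in 3.11%, 5.83% and 0.909%. Only 13 mural cells were deep enough for this, and the 0 of 13 found for each gene allows a share of up to 24.7%.

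Among genes with at least 100 CPM in either set, the highest ratio belonged to Akr1c18, which encodes 20-alpha-hydroxysteroid dehydrogenase, an enzyme that inactivates progesterone. It was at 186 CPM in quiescent members and 3.81 in other cells, 48.7-fold higher (31.8 to 78.0). Its reads may be shared with related genes of the Akr1c family. Il34, a ligand of the macrophage receptor Csf1r, was at 103 and 9.84 CPM, 10.5-fold higher (7.59 to 14.6). With tendon-like and mural cells counted among the other cells its log2 ratio was 2.04 in place of 3.27. The excluded mural cells held Il34 more often than members did. It was found in 53.6% of quiescent mural cells, 25.1% of members and 3.20% of other cells, and at day 14 in 64.0%, 37.8% and 6.51%. Ptx3, a secreted pentraxin, was at 123 and 13.8 CPM, 8.91-fold higher (6.72 to 11.9). Dact2, an intracellular modulator of Wnt signalling, was at 188 and 20.6 CPM, 9.09-fold higher (7.23 to 11.5). Sfrp2, a secreted Wnt modulator, was at 140 and 31.7 CPM, 4.41-fold higher (3.53 to 5.50). Bmp3, a BMP family member, was at 62.5 and 2.70 CPM, 23.2-fold higher (13.4 to 42.2).

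Other genes of this group carried larger counts. Igfbp5, an insulin-like growth factor binding protein, was at 3509 CPM in quiescent members and 551 in other cells, 6.37-fold higher (6.07 to 6.67). Pi16 was at 7305 and 1413 CPM, 5.17-fold higher (5.01 to 5.33). Has1, a hyaluronan synthase, was at 677 and 138 CPM, 4.90-fold higher (4.43 to 5.43). Car8, a carbonic anhydrase-related protein, was at 196 and 30.9 CPM. Ecscr, Ildr2, Ptgs1 and Rorb also had high ratios, between 6.12-fold for Ptgs1 and 8.43-fold for Ecscr. Of the prostaglandin enzymes, Ptgs1 (cyclooxygenase 1) was at 132 and 21.6 CPM, Ptgs2 (cyclooxygenase 2) at 126 and 39.4, and Ptgis (prostacyclin synthase) at 164 and 54.7. Ptges, which makes prostaglandin E2, was lower, at 18.9 and 56.0 CPM.

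Genes lower in members mark the other resting fibroblasts. Fbln7, a fibulin, had 1 UMI in quiescent members (0.992 CPM) and 140 CPM in other cells, 141-fold lower (25.2 to 5577). Thbs4, a thrombospondin of muscle and tendon matrix, was at 3.97 and 212 CPM, 53.5-fold lower (20.9 to 197). The chemokine Cxcl14 was at 5.95 and 286 CPM, 48.0-fold lower (22.0 to 131). Mfap4 and Cilp, both matrix proteins, were 26.6-fold (12.9 to 66.4) and 23.8-fold (13.3 to 47.8) lower. Smoc2, a matricellular calcium-binding protein, was at 191 and 2696 CPM, 14.2-fold lower (12.3 to 16.4). Hsd11b1, which regenerates active glucocorticoid, was at 31.8 and 398 CPM, 12.5-fold lower (8.86 to 18.4). Mgp, the matrix Gla protein that restrains calcification, was at 121 and 1306 CPM, 10.8-fold lower (9.02 to 13.0). Steap4, Col15a1, G0s2 and Crispld2 were lower by between 13.5-fold for Crispld2 and 25.5-fold for Steap4.

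By gene group, the resident progenitor list split toward members, and lists of matrix split away from them. Of 20 resident progenitor genes with at least 50 CPM, 8 were at least 2-fold higher in quiescent members (Pi16, Dpp4, Cd55, Stmn4, Efemp1, Sema3c, Anxa3 and Smpd3) and 2 lower (Pdgfra and Gsn), with a median log2 ratio of 0.81. Of the 11 genes of other resting fibroblast populations, 0 were higher and 11 lower, with a median of -2.60. This list names genes of the cells compared and was chosen with earlier results of these data known. Its direction is thus a description only. Of 12 basement membrane genes, 0 were higher and 7 lower (Col4a1, Col4a2, Col15a1, Col18a1, Lama2, Nid2 and Hspg2), with a median of -1.54. Col4a1, a chain of basement membrane collagen, was at 93.3 CPM in members and 736 in other cells, 7.89-fold lower (6.43 to 9.78). Col4a2 was at 44.7 and 443 CPM, whereas Nid1, the basement membrane linker nidogen 1, was at 905 and 890. Of 19 interstitial matrix genes, 3 were higher (Col14a1, Postn and Thbs2) and 8 lower, with a median of -0.64.

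Secreted signals were divided. Of 13 chemokines and cytokines with at least 50 CPM, 5 were at least 2-fold higher in quiescent members (Cxcl10, Ccl7, Il6, Il33 and Il34) and 4 lower (Cxcl12, Cxcl14, Ccl11 and Tslp), with a median of 0.01. Il33, an alarmin, was at 321 and 154 CPM, and Ccl11, the eosinophil chemokine eotaxin, at 528 and 2198. Of 12 growth factor genes, 4 were higher (Igfbp5, Fgf2, Pdgfc and Pdgfd) and 4 lower (Igf1, Igfbp7, Angptl1 and Mdk). Of 7 axon guidance genes, 3 were higher (Sema3b, Sema3c and Efna5) and 1 lower (Nrp1, a semaphorin co-receptor). Sema3c, a secreted semaphorin, was at 825 and 242 CPM, 3.41-fold higher (3.13 to 3.71). Of 7 retinoid genes, 2 were higher (Aldh1a3 and Adh7), 2 lower (Adh1 among them) and 3 neither. Aldh1a2, the other retinoic acid enzyme of mesenchyme, had 1 UMI in members and 42.4 CPM in other cells, 42.7-fold lower (7.60 to 1693). Of 9 interferon and antigen presentation genes, Isg15, Irf7 and Ifi27l2a were higher and none lower. Glycolysis (10 genes), ribosome biogenesis (7) and S phase (1) had none past 2-fold in either direction.

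Nearly all quiescent members also met a rule on the summed UMIs of Stmn4 and Pi16. Pi16 alone can meet it, so the share says little of Stmn4. A UMI of Pi16 was found in 99.1% of quiescent members and 58.9% of other cells. The same kind of rule applied to Stmn4 and Pi16 was met by 210 of the 215 quiescent members (97.7%) and by 36.5% of other cells. A rule on Hsd11b1 and Cxcl14 was met by 2 members (0.930%) and 30.4% of other cells, and one on Clu and Gdf10 by 1 member (0.465%) and 4.63% of other cells. Against the 513 non-member Stmn4 and Pi16 cells, the ratios of the genes below were smaller than against all other cells, except for Il34. Akr1c18 was at 186 CPM in members and 9.57 in the Stmn4 and Pi16 cells, 19.4-fold higher (12.2 to 32.5). Il34 was at 103 and 6.70 CPM, 15.4-fold higher (8.78 to 29.2). Krt19 was at 124 and 18.7 CPM, 6.65-fold higher (4.61 to 9.79). Aldh1a3 was 4.04-fold (3.28 to 5.00), Igfbp5 3.23-fold (3.06 to 3.40) and Wnt2 3.05-fold higher (2.35 to 3.97). Pi16 itself was at 7305 and 3669 CPM, 1.99-fold higher (1.93 to 2.06). Stmn4, a stathmin that the rule for the compared cells used, was at 243 and 316 CPM. Smoc2 was still 4.12-fold, Mgp 3.73-fold and Col4a1 3.44-fold lower.

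Some of these genes, but not all, were higher in quiescent members with more of the rule genes. The 215 members were divided by their summed rule-gene level into 31 cells under 10 per 10000 UMIs, 58 from 10 to under 20, 71 from 20 to under 40 and 55 at 40 or more. Akr1c18 was at 42.0, 59.8, 260 and 319 CPM over these 4 classes, Krt19 at 83.9, 74.8, 131 and 193, and Aldh1a3 at 186, 221, 304 and 323. Col4a1 ran the other way, at 246, 105, 65.7 and 15.8 CPM, while Smoc2 followed no order, at 306, 146, 266 and 67.0. The 162 other cells with 1 or 2 UMIs of the rule genes were intermediate: Wnt2 was at 86.1 CPM there and at 8.37 in the 1523 cells with none, and Smoc2 at 1214 and 2877. Pi16 varied less among members, from 6013 to 8186 CPM. At day 14, Aldh1a3 was at 195, 251, 369 and 503 CPM and Il34 at 61.9, 114, 183 and 224 over the same 4 classes, but Krt19 at 164, 167, 152 and 138. Akr1c18 at 16.7, 25.3, 16.9 and 11.2 CPM and Wnt2 at 150.1, 217, 203 and 160.2 followed no order at day 14 either. These classes share a library and are not replicates.

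**Figure D2:**
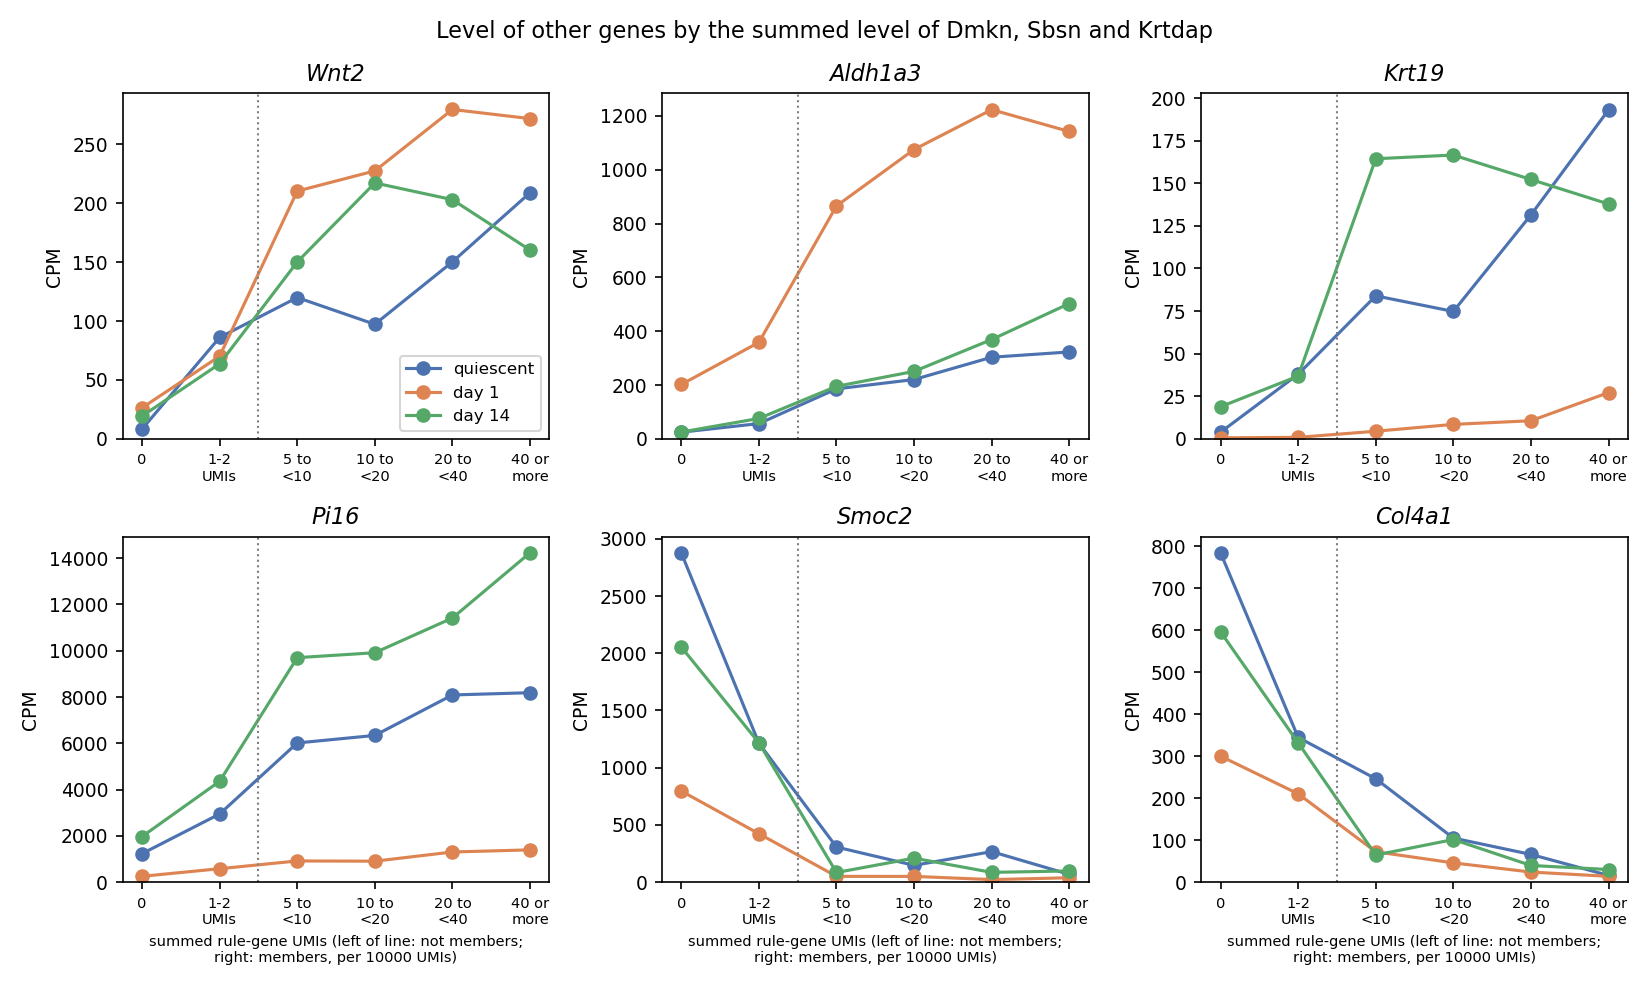
Wnt2, Aldh1a3, Krt19, Pi16, Smoc2 and Col4a1 in CPM of summed UMIs, by the summed level of Dmkn, Sbsn and Krtdap, in the quiescent, day 1 and day 14 libraries. The classes on the left are other cells with 0 and with 1 or 2 UMIs of the rule genes, and the 4 on the right are members by their level per 10000 UMIs. Smoc2 and Col4a1 are lower and Wnt2, Aldh1a3 and Pi16 higher in every class of members than in the cells with 0, in each library.

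Clustering that left out the 3 rule genes put most members together. In the quiescent library 153 members (71.2%) lay in 1 cluster of 233 cells, led by Akr1c18, Krt19, Wnt2, Ptx3, Ecscr and Aldh1a3, and 57 (26.5%) in a cluster of 538 led by Stmn4. At day 1, 394 members (77.3%) lay in a cluster of 788 led by Ifi27l2a, Wnt2, Figf and Gngt2, and 63 (12.4%) in a cluster of 767 led by Cxcl3 and Serpinb2. At day 14, 172 (66.4%) lay in a cluster of 405 led by Cldn11, Wnt2, Has1 and Aldh1a3, and 81 (31.3%) in a Stmn4-led cluster of 588. Of a member's 15 nearest neighbours by expression, 59.2%, 58.5% and 52.3% were members on average, against 5.56%, 5.20% and 6.30% of another cell's. Members were 65.7%, 50% and 42.5% of the clusters that held most of them, so the rule and the clusters overlapped in part only.

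At day 1 fewer genes separated members from other cells. Of 2826 genes, 91 (3.22%) were at least 2-fold higher in members and 100 (3.54%) lower, with a median of 0.02 over all compared genes. Wnt2 was at 243 CPM in members and 36.7 in other cells, 6.62-fold higher (6.13 to 7.16). Aldh1a3 was at 1068 and 234 CPM, 4.56-fold higher (4.40 to 4.71). Ifi27l2a, an interferon-inducible gene, was at 466 and 85.7 CPM, 5.44-fold higher (5.15 to 5.73). Ptgis was at 781 and 170 CPM, 4.59-fold higher (4.41 to 4.78). Cd55, which protects cells from complement, was at 161 and 33.8 CPM, 4.78-fold higher (4.37 to 5.23). Ccdc109b (5.34-fold), Gngt2 (4.63-fold) and Lrrn4cl (3.92-fold) completed the 8 highest ratios among genes with at least 100 CPM. Car8, at 66.3 and 6.54 CPM, had a higher ratio at a lower level, 10.1-fold (8.58 to 12). Krt19 was at 11.2 and 0.798 CPM, 14.1-fold higher (8.89 to 22.7), at a low level in both.

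The day 1 members held less of several inflammatory transcripts than other cells of that library. Of 16 chemokines and cytokines with at least 50 CPM at day 1, 0 were at least 2-fold higher in members and 7 lower (Cxcl5, Cxcl12, Cxcl14, Ccl2, Il6, Tslp and Il1r1), with a median of -0.60. Cxcl5, a neutrophil chemokine, was at 1128 CPM in members and 3073 in other cells, 2.72-fold lower (2.65 to 2.80). Ccl2, a monocyte chemokine, was at 1916 and 4567 CPM, 2.38-fold lower (2.34 to 2.43). The cytokine Il6 was at 85.4 and 284 CPM, 3.33-fold lower (3.02 to 3.67). Cxcl12, which retains CXCR4-bearing cells, was at 191 and 865 CPM, 4.52-fold lower (4.24 to 4.82). Of 5 acute phase genes, 4 were lower (Saa3, Ptx3, Steap4 and Cp), with a median of -2.49. Saa3, a serum amyloid A, was at 35.0 and 201 CPM, 5.74-fold lower (4.95 to 6.70), and its log2 ratio moved from -2.49 to -5.47 with members held to 5 UMIs and 10 per 10000. Cxcl3, another neutrophil chemokine and not in that list, was 2.05-fold higher in members, at 137 and 66.9 CPM. Serpinb2, a protease inhibitor, was at 127 and 53.5 CPM, 2.37-fold higher.

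Interferon genes leaned toward members at day 1. Of 10 with at least 50 CPM, 6 were at least 2-fold higher (Ifit1, Isg15, Irf7, Oasl2, Ifi27l2a and Psmb8) and 0 lower, with a median of 0.72. Isg15, a ubiquitin-like modifier, was at 218 and 66.3 CPM, 3.29-fold higher (3.07 to 3.54), and was found in 36.3% of members and 17.5% of other cells. Of 3 Wnt ligands and modulators, 3 were higher (Wnt2, Sfrp4 and Dkk2), and 2 under either other scaling. Sfrp4 lay at the limit, at 59.1 and 29.3 CPM, and its log2 ratio of 0.99 became 0.30 with cells thinned to 2500 UMIs. Matrix genes stayed divided. Tnc, the injury-associated glycoprotein tenascin C, was at 2.95 CPM in members and 111 in other cells, 37.7-fold lower (22.8 to 67.4). Mmp3, a matrix metalloproteinase, was at 81.3 and 930.3 CPM, 11.4-fold lower (10.4 to 12.6). Smoc2 was 17.9-fold (15.6 to 20.6), Thbs4 13.1-fold (10.2 to 17), Cxcl14 12-fold (10.1 to 14.4) and Col8a1, a short-chain collagen, 10.6-fold lower (8.95 to 12.6). Fn1, fibronectin, was at 505 and 204 CPM, 2.48-fold higher (2.37 to 2.59), and Col14a1, a fibril-associated collagen, at 155 and 47.0. Aldh1a2 was at 37.6 and 254 CPM, 6.77-fold lower (5.86 to 7.85), so that the pair of retinoic acid enzymes stood in opposite directions.

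At day 14 the number of genes that differed was near that of the quiescent library. Of 2945 genes, 148 (5.03%) were at least 2-fold higher in members and 190 (6.45%) lower, with a median of -0.13 over all compared genes. Itgb7, an integrin chain best known from leukocytes, was at 150 and 12 CPM, 12.5-fold higher (10.0 to 15.6). Aldh1a3 was at 308 and 38.3 CPM, 8.03-fold higher (7.02 to 9.19). Cldn11, a claudin of tight junctions, was at 105 and 13.3 CPM, 7.95-fold higher (6.31 to 10.0). Il34 (7.65-fold), Dact2 (7.35-fold), Krt19 (6.86-fold), Wnt2 (6.31-fold) and Car8 (5.76-fold) completed the 8 highest. Pi16 was at 10971 and 2490.0 CPM and Igfbp5 at 3979 and 955. The growth factor midkine, Mdk, was at 1.98 CPM from 3 UMIs in members and at 138 in other cells, 69.8-fold lower (23.8 to 339). Cxcl14 was 43.2-fold, Fbln7 37.1-fold, Mfap4 33.6-fold, Hsd11b1 24.9-fold and Crispld2 24.2-fold lower. All 12 genes of other resting fibroblast populations that reached 50 CPM were lower, and 7 of 11 basement membrane genes. The first of these lists names genes of the cells compared, so its direction is a description only.

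Some differences were present in all 3 libraries. Of the genes higher in quiescent members, 126 were also higher at day 14 (75.0% of the quiescent and 85.1% of the day 14 genes) and 46 at day 1 (27.4% of the quiescent and 50.5% of the day 1 genes). Of the lower genes, 140 were shared by quiescent and day 14 (74.5% and 73.7%) and 49 by quiescent and day 1 (26.1% and 49.0%). In all 3 libraries 39 genes were higher and 43 lower. The higher ones with the largest smallest ratio were Wnt2, Car8, Aldh1a3, Uchl1, Pi16, Gap43, Ccdc109b, Lurap1l, Gngt2, Procr, Ptgis, Aif1l, Sema3c, Usp18 and Efhd1. The lower ones were led by Smoc2, Thbs4, Cxcl14, Crispld2, Col8a1, Hsd11b1 and Steap4. Gap43, a growth-cone protein of neurons, was at 85.3 CPM in quiescent and 98.0 in day 1 members and at 22.7 and 21.1 in other cells. Procr, the endothelial protein C receptor, was at 549 and 214 CPM in members and 163 and 62.8 in other cells.

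At day 1 the members' own transcripts differed widely from those of quiescent members. Of 3240 genes, 706 (21.8%) were at least 2-fold higher in the day 1 library and 631 (19.5%) lower, with a median log2 ratio of -0.17. Scaling by the trimmed mean of M-values (TMM), which moved every ratio by 0.30 on the log2 scale and the median to 0.11, gave 1065 higher and 420 lower, and DESeq2's size factors 1089 and 405. Other cells read in the same pair of libraries gave 679 higher (20.2% of 3363) and 730 lower (21.7%), or 1509 and 338 with TMM scaling. Of the members' 706 higher genes, 521 (73.8%) were also at least 2-fold higher in other cells. Of their 631 lower genes, 446 (70.7%) were also lower there. The day 1 members held a median of 9115 UMIs a cell against 4764, and with cells of both libraries thinned to 2500 UMIs the members' counts were 663 and 619.

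Chemokines, Timp1 and Il1rl1 were among the genes with the largest ratios at day 1. Cxcl5, the largest, was at 1128 CPM in day 1 members and 0 in quiescent ones, at least 379-fold higher against a floor of 3 UMIs in the set. In other cells it was at 3073 CPM against 1 UMI. Cxcl3 (137 CPM against 0, at least 46.0-fold) and Serpinb2 (127 CPM against 0, at least 42.5-fold) were likewise not found in quiescent members. Timp1, an inhibitor of metalloproteinases, was at 3444 and 22.8 CPM, 151-fold higher (101 to 238). Il1rl1, the receptor of Il33, was at 236 and 2.98 CPM, 79.3-fold higher (27.1 to 385). Prg4, the lubricating proteoglycan, was at 1375 and 61.5 CPM, 22.3-fold higher (17.4 to 29.2). Cxcl2 was 26.9-fold (15.3 to 52.1), Mif 18.4-fold (14.4 to 23.8), Ddx39, an RNA helicase, 13.6-fold (9.02 to 21.5) and Ccl2 12.6-fold higher (10.8 to 14.9). Of 15 chemokines and cytokines, 8 were higher (Cxcl1, Cxcl2, Cxcl5, Cxcl12, Ccl2, Ccl7, Ccl8 and Il1rl1) and only Il34 lower.

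Growth-related groups were higher in members at day 1 too. The counts below are for members only, and most genes higher in members then were higher in other cells too. Of 14 genes of ribosome biogenesis, 13 passed 2-fold upward and 0 downward, with a median log2 ratio of 2.30. Ncl, nucleolin, was at 1094 CPM in day 1 and 208 in quiescent members, 5.25-fold higher (4.57 to 6.05), and Npm1, nucleophosmin, at 2372 and 494. Of 11 S phase genes, 10 were higher, with a median of 2.82. Mcm3, a subunit of the replicative helicase, was at 108 and 7.94 CPM, 13.7-fold higher (6.88 to 31.8), and Mcm7 at 88.4 CPM against 3 UMIs. No G2 and M phase gene reached 50 CPM. Of 10 glycolysis genes, 6 were higher and 1 lower, and Ldha, lactate dehydrogenase A, was at 1262 and 183 CPM, 6.91-fold higher (5.97 to 8.05).

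Many of the genes named as higher in quiescent members were lower at day 1. Pi16 was at 1085 CPM in day 1 and 7305 in quiescent members, 6.73-fold lower (6.50 to 6.97). Igfbp5 was at 254 and 3509 CPM, 13.8-fold lower (13.0 to 14.8). Akr1c18 was at 6.89 and 186 CPM, 26.9-fold lower (18.7 to 39.8). Krt19 was at 11.2 and 124 CPM, 11.1-fold lower (8.02 to 15.4), and its log2 ratio of -3.36 became -2.28 with cells thinned to 2500 UMIs. Dact2 was 45.4-fold (28.8 to 75.0), Pamr1 45.9-fold (28.5 to 78.1), Stmn4 36.3-fold (25.3 to 53.7) and Sfrp2 24.5-fold lower (16.3 to 37.9). Itih5, Abca8a, Cd200 and Pthlh were lower by 11.3-fold to 14.1-fold. Aldh1a3 and Wnt2 ran the other way: Aldh1a3 was 4.00-fold (3.54 to 4.54) and Wnt2 1.67-fold higher (1.40 to 1.99) at day 1. Other cells moved in the same directions. Their Aldh1a3 was at 234 CPM in the day 1 and 28.4 in the quiescent library, and their Wnt2 at 36.7 and 16.8. Pi16 was at 301 and 1413 CPM there, Igfbp5 at 132 and 551, and Akr1c18 at 1.06 and 3.81. Krt19 was at 0.798 and 7.62 CPM in other cells and Dact2 at 0.745 and 20.6.

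Of the resident progenitor list's 20 genes, 17 were lower by 2-fold or more at day 1 and 0 higher, with a median of -1.93. Of 16 interstitial matrix genes 13 were lower, with a median of -1.53, and of 8 basement membrane genes 8, with a median of -1.91. These counts too are for members only, and most genes lower in members at day 1 were lower in other cells as well. Clec3b, the plasminogen-binding tetranectin, was at 528 CPM in day 1 and 5271 in quiescent members, 9.98-fold lower (9.53 to 10.5). Col3a1 was at 984 and 3044 CPM and Nid1 at 242 and 905. Ly6a stood apart in this list at 3832 and 3226 CPM, 1.19-fold higher (1.14 to 1.23). Of 12 BMP and TGF-beta genes 9 were lower and 0 higher, and Bmp2 was at 13.2 and 120 CPM, 9.11-fold lower (6.70 to 12.5). Under both other scalings, counted in the same way, these lists kept their direction, with 16 resident progenitor genes and 7 basement membrane genes lower.

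Some genes stood differently in members and in other cells between the same pair of libraries. Cav1, the coat protein of caveolae, was at 182 CPM in day 1 and 12.9 in quiescent members, 14.1-fold higher (8.23 to 26.7), and at 314 and 162 in other cells, 1.93-fold higher (1.81 to 2.06). Gsto1, a glutathione transferase, was 63.9-fold higher (21.8 to 311) in members and 9.91-fold (8.30 to 11.9) in other cells. Il6 was at 85.4 and 75.4 CPM in members, 1.13-fold (0.886 to 1.46), and at 284 and 32.8 in other cells, 8.65-fold higher (7.54 to 9.97). Tnc had 15 UMIs in day 1 members and 0 in quiescent ones, while in other cells it was at 111 and 2.38 CPM, 46.8-fold higher (28.3 to 83.6). Angptl4 was 4.38-fold higher (3.22 to 6.09) in members and 22.0-fold (18.4 to 26.6) in other cells. Gas1 was at 18.3 and 28.8 CPM in members and at 14.6 and 130 in other cells, and Vwa1 at 9.84 and 16.9 CPM in members and 14.5 and 140 in other cells. Penk, the enkephalin precursor, was 1.80-fold higher (1.36 to 2.43) in members and 2.87-fold lower (2.66 to 3.10) in other cells. No difference between these pairs of ratios was tested.

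**Figure D3:**
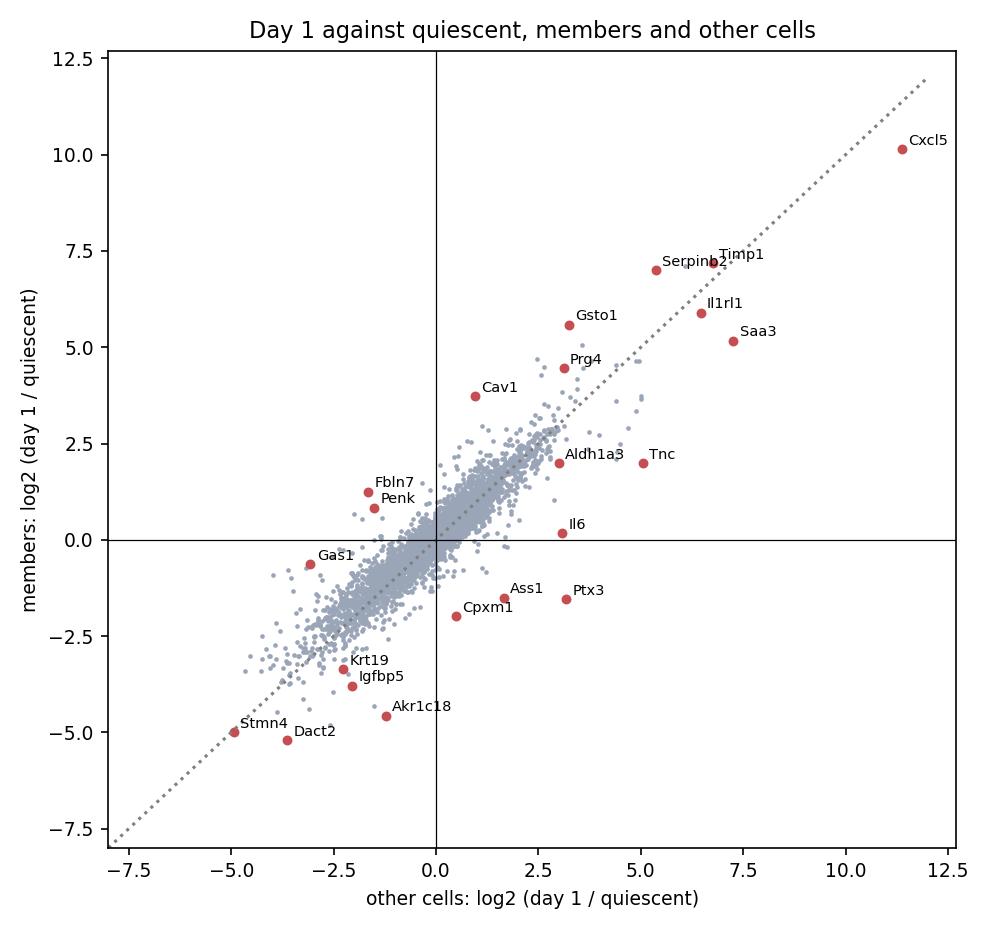
Each point is a gene. The horizontal axis is the log2 ratio of day 1 to quiescent in other cells and the vertical axis the same ratio in members, both from the same 2 libraries. Cav1 and Gsto1 lie above the line of equality and Ptx3, Il6 and Tnc below it.

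By day 14 few genes stood apart from the quiescent library. Of 2844 genes, 22 (0.774%) were at least 2-fold higher in day 14 members and 50 (1.76%) lower, with a median of -0.02. With cells thinned to 2500 UMIs the counts were 97 and 127. Unthinned other cells gave 26 (0.89%) and 21 (0.719%) of 2921. Apod, a lipocalin, was at 405 and 160 CPM in members, 2.54-fold higher (2.13 to 3.04), and 2.73-fold higher (2.64 to 2.82) in other cells. Cldn11 was at 105 and 42.7 CPM, 2.47-fold higher (1.75 to 3.55), and Mgp at 289 and 121 CPM, 2.38-fold higher (1.95 to 2.94), both also higher in other cells by 3.63-fold and 2.77-fold. The members' log2 ratio of Mgp, 1.25, became 2.59 where at least 2 of the rule genes had to be found in a cell. Hspa1a, a heat shock protein whose reads its near-identical copy can share, was at 2019 and 668 CPM in members, 3.02-fold higher (2.78 to 3.29), and at 2113 and 1974 in other cells. The remaining named ones, Engase, Tgfbi, Myoc, Entpd2, Id2, Isg15, Bgn and Ecm1, were higher by 1.78-fold to 2.23-fold.

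Among the genes lower at day 14, Akr1c18 had the largest ratio, at 18.5 CPM in day 14 and 186 in quiescent members, 10.1-fold lower (6.74 to 15.5). In other cells it was at 3.38 and 3.81 CPM, 1.13-fold lower (0.644 to 1.93). Gpc3, a glypican, was at 37.6 and 123 CPM, 3.28-fold lower (2.38 to 4.57), and Thbs2 at 89.6 and 252 CPM, 2.81-fold lower (2.27 to 3.49), beside 1.10-fold and 1.20-fold lower in other cells. Atp5k was 2.57-fold lower (2.07 to 3.20) in members and 2.59-fold (2.38 to 2.81) in other cells. Ptx3 was at 51.4 and 123 CPM in members, 2.39-fold lower (1.79 to 3.22), and at 18 and 13.8 in other cells. Fosb, Spry2, Ccnl1, Plac8, Flrt2, Tnfaip2 and Rorb were lower by 2.11-fold to 2.40-fold. Of 20 resident progenitor genes 0 were higher and 1 lower, and of 8 basement membrane genes none passed 2-fold.

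Read over all 5 libraries, with days 2 and 4 by the same rule, the marker genes took different courses. Aldh1a3 in members was at 267 CPM before injury, 1068 on day 1, 159 on day 2, 279 on day 4 and 308 on day 14. Wnt2 was at 146, 243, 82.4, 183 and 185 CPM in the same order, so both were highest at day 1 and lowest at day 2. Krt19 was at 124, 11.2, 23.1, 137 and 158 CPM, with its lowest values on days 1 and 2. Pi16 was at 7305, 1085, 3184, 9465 and 10971 CPM and Igfbp5 at 3509, 254, 1513, 3933 and 3979, both lowest at day 1. Dact2 was at 188, 4.13, 20, 84.0 and 243 CPM and Il34 at 103, 16.3, 34.2, 119 and 135. Akr1c18 was at 186, 6.89, 6.97, 67.5 and 18.5 CPM so its day 14 level was a small part of its quiescent one. Cxcl5 was at 0, 1128, 102, 0 and 0 CPM. In every library Wnt2, Aldh1a3, Krt19, Pi16 and Igfbp5 were higher, and Mgp lower, in members than in other cells.

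**Figure D4:**
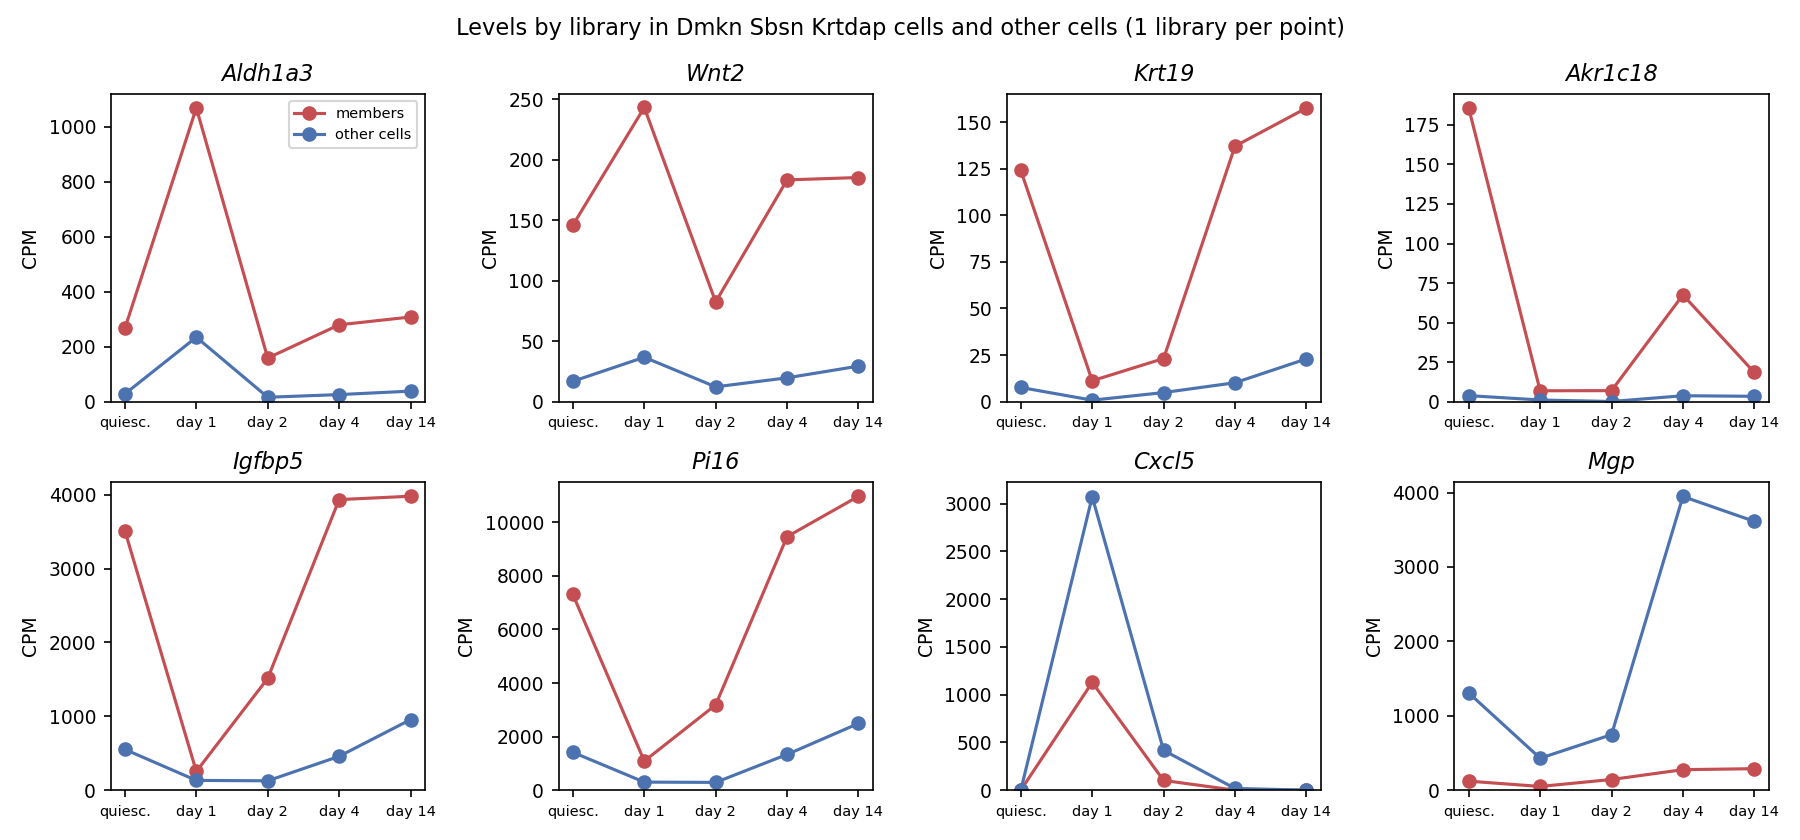
Aldh1a3, Wnt2, Krt19, Akr1c18, Igfbp5, Pi16, Cxcl5 and Mgp in CPM of summed UMIs in the quiescent, day 1, 2, 4 and 14 libraries, members in red and other non-excluded cells in blue, with 1 library per time point. Aldh1a3 in members peaks at 1068 CPM at day 1, Krt19, Igfbp5 and Pi16 have their lowest value there, and Akr1c18 stays at 18.5 CPM at day 14.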

How the data were processed

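The authors deposited UMI counts of 28001 features per cell barcode, 1 matrix per library, made with Cell Ranger on mm10 per the submitters' processing notes. The version, the cell-calling rule and any removal of doublets were not given in the sources used here. Barcodes with at least 500 genes and at most 10% mitochondrial UMIs were kept, 17085 of 17213. Cells with 5 or more UMIs of Tnmd, Fmod, Kera and Chad, or of Rgs5, Kcnj8, Abcc9 and Higd1b, were set aside as tendon-like or mural cells. Scrublet called 4, 0 and 3 doublets in the quiescent, day 1 and day 14 libraries, too few to have worked, so none were removed. UMIs were summed over members and over other cells of each library (members: 1007640, 5080411 and 1517306 UMIs; other cells: 6301570, 37598692 and 10934154) and divided by the total to give CPM. Precision was set by these sums: ratios carry exact conditional binomial and shares Clopper-Pearson intervals, 95%, for counting error only. A gene counted as higher or lower at 2-fold or more with at least 50 CPM in the higher set. Median log2 ratios used genes of at least 5 CPM and added 1 CPM to both sides. No p-value was computed, since each group has 1 library.

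Clusters were built per library without the rule genes (2000 variable genes, 30 components, 15 neighbours, Leiden resolution 0.5). Python 3.11.15 with numpy 2.4.6, scipy 1.17.1, pandas 2.3.3, scanpy 1.11.5, leidenalg 0.10.2 and igraph 0.11.9 was used. R 4.3.3 with edgeR 4.0.16 and DESeq2 1.42.0 gave scaling factors for alternatives only. The counting and ratio steps were tested on simulated data. The members and gene lists were chosen with earlier results of these data known. Named were the label's marker genes, Hic1, Pdgfra, Ly6a, Cd34 and tdTomato; the 14 highest and 10 lowest ratios of members to other cells in the quiescent library, and 8 and 6 at days 1 and 14, at 100 CPM or more; the 12 highest and lowest of day 1 and day 14 against quiescent; the 6 each way whose day 1 ratio differed most between members and other cells; up to 15 each way past 2-fold in all 3 libraries; and up to 5 per list at 20 CPM or more. Mitochondrial, ribosomal protein, haemoglobin and predicted genes were left out, and a few named results are not reported here. Genes named beyond these complete a list's count or follow a member over time, and were chosen after their values were seen. Genes with near-identical copies, such as Ly6a, Ly6c1, Hspa1a and Akr1c18, can share reads. Alternatives changed the member rule, the cell filters, depth, scaling, the minimum level and the averaging.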

Additional observations from a re-analysis of the deposited data

Results flagged for a closer look

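Ass1, the enzyme argininosuccinate synthase, and Ptx3 stood in opposite directions in members and in other cells between the day 1 and quiescent libraries, each by 2-fold or more. Ptx3 was at 41.7 CPM in day 1 members and 123 in quiescent ones, 2.95-fold lower (2.34 to 3.70), and at 132 and 13.8 CPM in other cells, 9.59-fold higher (7.76 to 12). The difference of its log2 ratios, members minus other cells, was -4.71. Ass1 was at 17.9 and 52.6 CPM in members, 2.94-fold lower (2.05 to 4.16), and at 56.8 and 17.3 CPM in other cells, 3.28-fold higher (2.71 to 4.02), with a difference of -3.16. Each set of cells had 1 library per time point, so the difference was not tested.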

How the results depend on the processing

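No paired analysis was possible because each time point has 1 library. Over 13 shares and counts of genes, 119 of the values under other settings stayed within the interval of the share or within 1.5 times the count, and 35 did not. Members held to 5 UMIs and 10 per 10000 made up 8.84%, 8.25% and 7.43% of quiescent, day 1 and day 14 cells, and 34 genes were higher at day 14 than quiescent. With at least 2 rule genes found in a cell the shares were 9.26%, 9.30% and 8.46%. Thinned to 2500 UMIs, with shallower cells left out and the rule thus stricter, they were 8.46% at day 1 and 8.16% at day 14. At that depth 97 genes were higher and 127 lower at day 14 than quiescent. With tendon-like and mural cells kept, the day 14 share was 7.63%. TMM gave 1065 genes higher and 420 lower at day 1 than quiescent, and DESeq2 1089 and 405. A 20-CPM minimum gave 278 higher and 408 lower in members than in other cells before injury, 172 and 185 on day 1 and 234 and 396 on day 14, 1237 lower at day 1 than quiescent, and 93 higher and 165 lower at day 14 than quiescent. No minimum gave 2052 and 1380, 2216 and 941, and 2071 and 1561 for members against other cells, 1623 and 3331 for day 1 and 658 and 919 for day 14 against quiescent. A lower minimum admits genes with few UMIs. The settings of at most 5% mitochondrial UMIs, at least 1000 genes, no high doublet scores and the mean of per-cell CPM left all 13 within those limits, and so did one chosen after seeing the data, without barcodes found in another library.

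Of 727 ratios of named genes, 8736 values under these settings stayed within the counting interval, 714 left it without changing a called direction, and 1 reversed. Matn4 at day 14, members against other cells, had a log2 ratio of -0.23 with tendon-like and mural cells kept, against 3.17 without them. Depth limits the quiescent members most: 215 cells and 1007640 UMIs, so that 3 UMIs there stand for 2.98 CPM.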

Other observations

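Some genes of the lists were described for no comparison above. Of 15 elastic fibre genes with at least 50 CPM in the quiescent library, 2 were at least 2-fold higher in members and 4 lower, and of 14 small leucine-rich proteoglycan and hyaluronan genes 1 was higher and 5 lower. The shares over all 3009 genes at that level were 5.58% higher and 6.25% lower. Bgn, biglycan, was at 99.2 CPM in quiescent members and 944 in other cells, 9.52-fold lower (7.81 to 11.7), and Lum, lumican, at 451 and 2488, 5.52-fold lower (5.03 to 6.08). Bgn was at 447 CPM in day 1 members, 4.51-fold higher than in quiescent ones (3.69 to 5.56), and 1.35-fold higher (1.32 to 1.39) in other cells. Of 12 lipid and prostaglandin genes, 3 were higher in quiescent members (Ptgs1, Ptgs2 and Ptgis) and 7 lower. Lpl, lipoprotein lipase, was at 151 and 603 CPM, 4.00-fold lower (3.40 to 4.73).

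Of 9 transcription factors of limb and mesenchyme with at least 50 CPM in the quiescent library, 1 was higher in members and 2 lower. Over all 3009 genes at that level, 5.58% were higher and 6.25% lower. Osr2, an odd-skipped factor of limb connective tissue, was at 142 CPM in quiescent members and 70.9 in other cells and at 130 and 43.0 at day 1, 3.02-fold higher there (2.76 to 3.31). Meox1, a somitic homeobox factor, was at 10.9 and 89.2 CPM in the quiescent library, 8.17-fold lower (4.53 to 16.5), and at 3.74 and 51.1 at day 1, 13.7-fold lower (8.73 to 22.8). Of 20 early response genes with at least 50 CPM in the quiescent library, 0 were higher in members and 3 lower. Of 21 such genes, 2 (Fosl1 and Ier3) were higher and 12 lower in day 1 members than in quiescent ones. For that pair of libraries 21.8% of all 3240 genes were higher and 19.5% lower. Egr1, a factor induced within minutes of stimulation or tissue dissociation, was at 142 and 633 CPM, 4.47-fold lower (4.01 to 4.98).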
